A study of Mus musculus with 8 samples.

Results

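The genes examined were 10 of the Wnt pathway, Wnt3, Ptk7, Dact3, Dvl1, Dvl2, Lef1, Tcf7, Axin2, Lrp6 and Ctnnb1, in B cells with and without the arginine methyltransferase Prmt5. They were taken by symbol from an RNA-seq table of 39017 genes, of which 16250 had a mean of at least 10 normalized counts and were tested, all 10 of these among them. Wnt3, Ptk7 and Dact3 were chosen because their levels were higher in the Prmt5-null libraries, and Dvl1 because of its splicing, so those values are a description with no test. The levels of the other 7 genes, Dvl1 included, played no part in the choice and were tested.

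Wnt ligands are secreted proteins that bind Frizzled receptors together with the co-receptors Lrp5 or Lrp6. Binding recruits Dishevelled proteins (Dvl1, Dvl2, Dvl3) and stops a complex built on Axin, Apc and Gsk3 from marking beta-catenin (Ctnnb1) for destruction. Beta-catenin then enters the nucleus, binds the DNA-binding proteins of the Tcf and Lef family and raises output genes such as Axin2, while a branch without beta-catenin, planar cell polarity, works through Frizzled, Dishevelled and receptors such as Ptk7. In the B lineage Lef1 is best known from progenitor cells, whose survival and growth Wnt signals can promote.

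The cells were iGBs, splenic B cells of mice on a C57BL6/J background grown to day 4 on 40LB feeder cells, irradiated fibroblasts that present CD40L and secrete BAFF, with IL-4, and then parted from the feeders by elutriation. Prmt5-null iGBs came from Prmt5 F/F Cγ1-cre mice, in which Cre is made only once a B cell is activated, and control iGBs from Cγ1-cre mice, so both genotypes carried the Cre. Each genotype had 4 libraries from 4 mice in 2 experiments, the study used mice of 2 to 4 months and of both sexes, and the labels do not say which library came from which. The table gives, per gene, read counts divided by a size factor for each library (normalized counts), from 36731721 to 50366174 reads per library. Prmt5 itself had 11084 to 13088 normalized counts in control and 1060 to 1994 in Prmt5-null libraries. Summed B cell markers were at 169289 to 188294 normalized counts in control and 172855 to 200188 in Prmt5-null libraries, although Cd79a was called lower (log2 fold change -0.74, limma adjusted p = 3.3e-04) and Fas was higher under 1.5-fold (0.47, adjusted p = 0.0050). The libraries are bulk RNA, so fewer cells of a type and less RNA per cell cannot be told apart.

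Wnt3, Ptk7 and Dact3 are shown first, with the 250 bases before the RefSeq start of each gene on GRCm38.p6, because they are the members that were higher together. In the lines below, 5′ to 3′ on the strand of the gene, capitals mark GC boxes (GGGCGG, or CCGCCC on the other strand), the motif that Sp family factors bind. The windows are, for Wnt3, chr11:103773925-103774174 on the plus strand, for Ptk7, chr17:46629505-46629754 on the minus strand and, for Dact3, chr7:16875067-16875316 on the plus strand.
Wnt3: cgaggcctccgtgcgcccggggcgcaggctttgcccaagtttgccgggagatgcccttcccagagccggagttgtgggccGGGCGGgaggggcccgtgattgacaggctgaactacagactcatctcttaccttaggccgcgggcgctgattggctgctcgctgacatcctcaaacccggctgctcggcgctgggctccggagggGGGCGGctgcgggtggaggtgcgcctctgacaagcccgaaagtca
Ptk7: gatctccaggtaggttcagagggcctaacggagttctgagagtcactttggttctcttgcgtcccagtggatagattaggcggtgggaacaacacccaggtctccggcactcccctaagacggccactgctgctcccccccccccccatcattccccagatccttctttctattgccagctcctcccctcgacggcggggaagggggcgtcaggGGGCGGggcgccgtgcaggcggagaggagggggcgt
Dact3: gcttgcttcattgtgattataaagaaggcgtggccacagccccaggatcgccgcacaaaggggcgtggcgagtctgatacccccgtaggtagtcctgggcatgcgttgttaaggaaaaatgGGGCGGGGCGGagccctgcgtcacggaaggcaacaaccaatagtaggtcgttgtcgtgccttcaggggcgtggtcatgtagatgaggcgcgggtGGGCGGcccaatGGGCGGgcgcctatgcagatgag
Wnt3 held 2 GC boxes, Ptk7 1 and Dact3 4, of which 1 pair overlapped by 1 letter, and 32.7% of all 32851 promoters in the RefSeq table held at least 1 in the same window. The core letters of a Tcf/Lef site (CTTTGAT, or ATCAAAG on the other strand) were in 3.21% of all promoters and in none of these. They were also absent from the other promoters listed for the members, 14 in all for 9 of the 10 genes, with none listed for Lrp6. The 3 promoters were rich in CpG, with 22 for Wnt3, 14 for Ptk7 and 19 for Dact3 against a median of 6 over all promoters. This was not particular to them. The listed promoters of Ctnnb1 held 35 and 43 CpG, Tcf7 15 and 37, Dvl1 26, Axin2 24, Dvl2 13 and Lef1 5 to 14. GC boxes were likewise in promoters of other members, with 5 for Dvl1, 4 for Dvl2 and 0 or 1 in those of Lef1. These are counts of letters in this window and say nothing of binding.

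Wnt3, a ligand that acts through beta-catenin (ENSMUSG00000000125, chr11:103774150-103817957, plus strand), had 120, 84.7, 121 and 109 normalized counts in the Prmt5-null libraries of mice 10617, 10618, 10770 and 10771. The control libraries had 19.4 (CTRL-10650), 8.92 (CTRL-10370), 28.4 (CTRL-10597) and 17.9 (CTRL-10596), and every list below gives the Prmt5-null libraries in the order above and the controls in that of their labels, with CTRL-10597 last. The lowest Prmt5-null library thus lay well above the highest control library. The means were 109 ± 17.0 and 18.7 ± 7.99 normalized counts (SD, n = 4 mice each), a log2 fold change of 2.57 on the log2(normalized count + 1) scale.

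Ptk7, a receptor with an inactive kinase domain that takes part in planar cell polarity (ENSMUSG00000023972, chr17:46564471-46629504, minus strand), had 111, 84.7, 119 and 108 normalized counts in the Prmt5-null libraries. The control libraries had 32.3, 23.2, 5.38 and 26.1. The genotypes did not overlap, and CTRL-10596 stood below the other control libraries. The means were 106 ± 14.8 and 21.7 ± 11.6 (SD, n = 4 each), a log2 fold change of 2.46.

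Dact3, which binds Dishevelled and is known as an inhibitor of Wnt signalling (ENSMUSG00000078794, chr7:16875317-16887462, plus strand), had 5388, 4896, 5303 and 4665 normalized counts in Prmt5-null libraries. Control libraries had 2331, 2289, 2257 and 2167. The mice of each genotype lay close together, with no overlap between genotypes. The means were 5063 ± 341 and 2261 ± 69.3 (SD, n = 4 each), a log2 fold change of 1.16. Over all tested genes 3.49% were called higher, where called means an adjusted p below 0.05 in limma and at least a 1.5-fold change, and 9.67% were higher with no overlap. Wnt3, Ptk7 and Dact3 were in both sets, as their choice required.

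**Figure D1:**
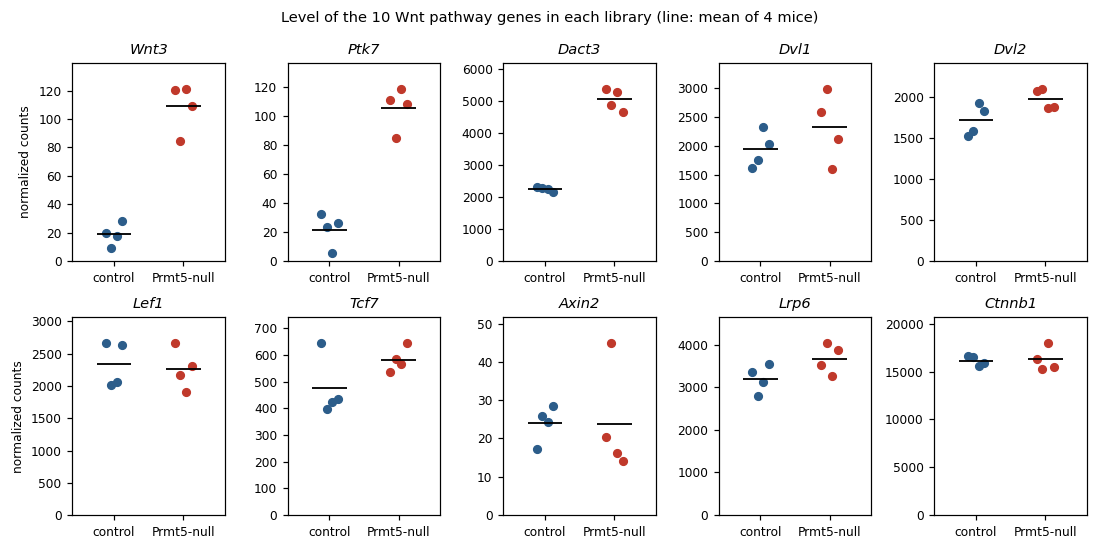
Normalized counts (linear axis from 0) of the 10 Wnt pathway genes in each control (blue) and Prmt5-null (red) library, 1 point per mouse, with a line at the mean of the 4 mice. The genotypes are apart for Wnt3, Ptk7 and Dact3, which were chosen for this, and overlap for the other 7 genes.

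The genes with the most similar pattern over the 8 libraries were sought among 13299 genes with a mean of at least 50, by the root mean square difference between centred log2(normalized count + 1) values. For Wnt3 they were Zfp750 (a difference of 0.420), Sulf2 (0.432) and Crip2 (0.445). For Ptk7 they were Perp (0.485), Pdgfa (0.567) and Ldhb (0.616). For Dact3 the differences were smaller, with Tnip3 (0.109), Ephx1 (0.125) and Phlda3 (0.127). Dact3 had a mean of 3662 normalized counts over the 8 libraries, and Wnt3 and Ptk7 each had 63.8. The part of this abundance in the smaller differences was not tested. Phlda3 had 2615 to 2798 normalized counts in Prmt5-null and 1033 to 1299 in control libraries, and Zfp750 had 149 to 259 and 29.4 to 43.8.

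Of the 7 members whose level was not used in the choice, none was called, where 6.48% of all genes were called in either direction. At an unadjusted p below 0.05, which 29.3% of all genes reached, limma gave 1 of the 7, Dvl2. edgeR and DESeq2 on the recovered reads also called 0 of 7, with 0 and 1 at that unadjusted p. In all 7 the genotypes overlapped, while 19.8% of all genes were apart in one direction or the other. The median log2 fold change of the 7 was 0.20, against 0.00 over all genes tested.

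Lrp6, the co-receptor for Wnt ligands (ENSMUSG00000030201, chr6:134446476-134566965, minus strand), had 3519, 4040, 3265 and 3867 normalized counts in Prmt5-null libraries and 3356, 2802, 3112 and 3547 in control libraries. The ranges overlapped, although the highest library was Prmt5-null and the lowest a control. Its log2 fold change was 0.20 with a 95% interval from -0.01 to 0.40 (limma adjusted p = 0.189).

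Dvl1 and Dvl2 are Dishevelled scaffolds that pass the signal from the receptors to the destruction complex. Dvl1 (ENSMUSG00000029071, chr4:155847402-155859303, plus strand) had 2576, 2985, 1592 and 2112 normalized counts in Prmt5-null and 1621, 1752, 2329 and 2036 in control libraries. Both the highest and the lowest library were Prmt5-null. Its log2 fold change was 0.24 with an interval from -0.15 to 0.62 (limma adjusted p = 0.403). Dvl2 (ENSMUSG00000020888, chr11:70000595-70012301, plus strand) had 2070, 2102, 1869 and 1879 against 1522, 1591, 1928 and 1838. Only CTRL-10596 lay within the Prmt5-null range. For Dvl2 the log2 fold change was 0.21, from 0.0042 to 0.41 (limma adjusted p = 0.163).

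Ctnnb1, which encodes beta-catenin (ENSMUSG00000006932, chr9:120929216-120960507, plus strand), had 16352, 15299, 18000 and 15538 normalized counts in Prmt5-null and 16632, 16501, 15607 and 15858 in control libraries. The control libraries all fell within the Prmt5-null range. The log2 fold change was 0.01 and its interval, from -0.15 to 0.17, was the narrowest among the 7 (limma adjusted p = 0.947).

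Lef1 and Tcf7 are the DNA-binding partners of beta-catenin and are also raised by it in many tissues. Lef1 (ENSMUSG00000027985, chr3:131110471-131224356, plus strand) had 2666, 2171, 1903 and 2314 normalized counts in Prmt5-null and 2659, 2021, 2065 and 2634 in control libraries. Both genotypes spanned nearly the same range, and the log2 fold change was -0.05, from -0.32 to 0.22 (limma adjusted p = 0.830). Tcf7 (ENSMUSG00000000782, chr11:52252371-52283014, minus strand) had 536, 584, 567 and 644 against 645, 399, 424 and 434. The library CTRL-10650 stood at the level of the highest Prmt5-null library, and the other 3 control libraries lay below every Prmt5-null one. The log2 fold change of Tcf7 was 0.32, from -0.0025 to 0.64 (limma adjusted p = 0.174), and without CTRL-10650 it was 0.47 (adjusted p = 0.0219).

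Lef1 and Tcf7 are also high in T cells. The summed level of 10 T cell markers was 1095 to 1252 normalized counts in control and 701 to 882 in Prmt5-null libraries, 0.685 times as high. Of 4 markers tested, 1 was called lower, Lck (log2 fold change -0.94, limma adjusted p = 8.5e-04), where 2.99% of all genes were called lower. The others tested were not called, with log2 fold changes of -0.78 for Cd28, 1.22 for Bcl11b and 0.43 for Cd5, so Lck (730 ± 50.6 normalized counts in control and 384 ± 70.0 in Prmt5-null libraries) and Cd28 (212 ± 60.2 and 125 ± 42.9) made up the lower sum. Cd3e, which defines T cells, had no read in any library. The part of these markers in the levels of Lef1 and Tcf7 was not tested.

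Axin2, a scaffold of the destruction complex that beta-catenin induces and that feeds back on the pathway (ENSMUSG00000000142, chr11:108920349-108950783, plus strand), had 20.4, 44.9, 16.2 and 14 normalized counts in Prmt5-null libraries. Control libraries had 17.2, 25.9, 24.2 and 28.4. Prmt5-null 10618 was the highest of all and the other 3 Prmt5-null libraries each lay below at least 3 of the 4 controls. The log2 fold change was -0.13, with a wide interval from -0.93 to 0.67 (limma adjusted p = 0.853), so a change within that interval was not excluded at these counts.

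Levels were compared between members per kb of exonic length, in control libraries. Ctnnb1 was highest at 3110 ± 95.4 normalized counts per kb (SD, n = 4), followed by Dact3 at 756 ± 23.2 and Dvl1 at 387 ± 63.1. Dvl2 at 273 ± 30.8, Lef1 at 267 ± 39.7, Lrp6 at 234 ± 23.5 and Tcf7 at 181 ± 43.5 came next, and of these neighbours Dvl2 and Lef1, and Lef1 and Lrp6, differed by less than their spread. At the low end, Wnt3 at 6.07 ± 2.60, Axin2 at 4.35 ± 0.87 and Ptk7 at 4.04 ± 2.15 were not separated beyond their spread. In Prmt5-null libraries Wnt3 was at 35.4 ± 5.52 and Ptk7 at 19.7 ± 2.74 per kb, still below every other member but Axin2, at 4.34 ± 2.59.

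The rest of the pathway was read from lists by role that together held 114 symbols, 113 of them in the table and 64 tested. Aes was also listed under its other symbol, Tle5. Without Wnt3, Ptk7 and Dact3, 61 were tested, of which 2 were called higher and 5 lower, where 3.49% and 2.99% of all genes were called in those directions. Of the 5 lower, Fzd9 and Dact1 passed the filter on low values only through the control libraries, where they were higher, so 3 are left without them. With CTRL-10596, CTRL-10370 or Prmt5-null 10617 left out, 3 of the 7 calls of either direction remained. The median log2 fold change of these 61 was 0.01. Among them, 4 were higher and 7 lower with no overlap, beside 9.67% and 10.2% of all genes. Those 7 include Fzd9 and Dact1, which passed the filter only through the controls.

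Among 19 Wnt ligands only Wnt3, Wnt10a and Wnt10b reached the mean for testing. Wnt5b, under that mean, had 3.74 to 7.41 normalized counts in Prmt5-null and 0 to 1.79 in control libraries, at most 8 reads. It was called by limma only with no filter on low values. Wnt3a and Wnt8a had no read in any library, and 8 ligands, those included, had at most 3 reads in any library, the limit below which a level was read as not detected. Wnt10b was at 2218 ± 649 normalized counts in Prmt5-null and 2252 ± 331 in control libraries (SD, n = 4 each). Its log2 fold change was -0.05, from -0.41 to 0.31 (limma adjusted p = 0.874), and that of Wnt10a was -0.12 (adjusted p = 0.700). Per kb of exonic length, Wnt10b averaged 657 and Wnt10a 91.0 normalized counts over the 8 libraries, against 35.4 for Wnt3 in Prmt5-null and 6.07 in control libraries. Wls, which carries Wnt ligands to the cell surface, had 549 to 814 normalized counts in Prmt5-null and 372 to 478 in control libraries, with a log2 fold change of 0.58 (limma adjusted p = 0.0153). This was just under 1.5-fold, so Wls was not called by limma, while edgeR (0.60, adjusted p = 0.0137) and DESeq2 (0.60, adjusted p = 8.1e-04) called it, as did limma without Prmt5-null 10617, 10618 or 10771 or without CTRL-10370.

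Of 10 receptors and co-receptors tested, 1 was called lower, where 2.99% of all genes were, and none beside Ptk7 was called higher. The lower gene was Fzd9, a Frizzled receptor. It had 1.85, 2.04, 8.66 and 7.47 normalized counts in Prmt5-null and 17.2, 16.0, 10.8 and 16.6 in control libraries, a log2 fold change of -1.63 (limma adjusted p = 0.0464). These are few reads, the mean in Prmt5-null libraries (5.01) was under the filter at 10 and that in controls (15.2) above it, and with no filter the call was lost. It was also lost when any 1 of 7 libraries was left out, all except Prmt5-null 10770, with a highest adjusted p of 0.107. The highest receptors, both in normalized counts and per kb, were Lrp6, Ryk and Fzd5. Ryk, a receptor-like pseudokinase that binds Wnt ligands, had 354 to 515 normalized counts in Prmt5-null and 318 to 404 in control libraries (log2 fold change 0.24, limma adjusted p = 0.256). Fzd5 had 156 to 206 and 177 to 288 (log2 fold change -0.36, limma adjusted p = 0.192).

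Dkk3, a secreted protein of the Dickkopf family of Wnt antagonists whose own part in the pathway is less settled, rose. It had 80.5, 134, 120 and 121 normalized counts in Prmt5-null and 17.2, 37.4, 34.0 and 30.8 in control libraries. The log2 fold change was 1.93, from 1.34 to 2.51 (limma adjusted p = 8.1e-04). Dkk3 and Kremen1, at -0.11 (limma adjusted p = 0.381), were the 2 tested of 15 listed inhibitors, not all of which are secreted, Kremen1 among the exceptions.

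Apc2, a relative of the destruction complex scaffold Apc, also rose, with 50.9, 67.4, 41.1 and 57.9 normalized counts in Prmt5-null and 22.6, 21.4, 17.0 and 29.6 in control libraries. Its log2 fold change was 1.23 (limma adjusted p = 0.0084). None of the other 12 genes of beta-catenin and its destruction complex was called, where 6.48% of all genes were. The median of all 13 was 0.00. The enzyme genes Gsk3a and Gsk3b were at 0.03 and -0.18 on the log2 scale (limma adjusted p = 0.820 and 0.346).

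Of 10 genes of Dishevelled and its regulators, 6 were tested. Beside Dact3, chosen for being higher, 2 were called, both lower, where 2.99% of all genes were called lower. Dact1, a relative of Dact3, fell from 23.7, 19.6, 16.1 and 14.2 normalized counts in control libraries to 5.56, 8.17, 2.16 and 9.34 in Prmt5-null ones (log2 fold change -1.52, limma adjusted p = 0.0369), having passed the filter only through the controls. Cxxc5, a zinc finger protein that binds Dishevelled, fell from 108, 211, 183 and 105 to 78.7, 74.5, 89.8 and 89.7 (log2 fold change -0.80, limma adjusted p = 0.0424). Per kb the 2 genes were far apart, with an average over the 8 libraries of 1225 normalized counts for Dact3 and 3.29 for Dact1. The call of Dact1 was lost with no filter on low values and without any 1 of the 4 control libraries or of Prmt5-null 10617 and 10770, with a highest adjusted p of 0.0969. That of Cxxc5 was lost without CTRL-10370 or CTRL-10596 or Prmt5-null 10617, 10618 or 10771, with a highest adjusted p of 0.123.

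Among 14 nuclear factors tested, 1 was called, where 6.48% of all genes were. That gene, Tle2, encodes a Groucho co-repressor. It fell from 64.6, 84.7, 94.1 and 129 to 48.1, 50.02, 42.2 and 57.9 normalized counts (log2 fold change -0.86, limma adjusted p = 0.0276). Leaving out Prmt5-null 10617 or 10770 or CTRL-10370, CTRL-10596 or CTRL-10597 lost the call, with a highest adjusted p of 0.0794. Among 10 planar cell polarity genes tested, Fuz, a planar polarity effector needed for cilia, fell from 457, 678, 633 and 591 to 439, 332, 315 and 316 normalized counts. The highest Prmt5-null library lay just under the lowest control library. Its log2 fold change was -0.75 (limma adjusted p = 0.0066), and leaving out any 1 library kept the call.

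**Figure D2:**
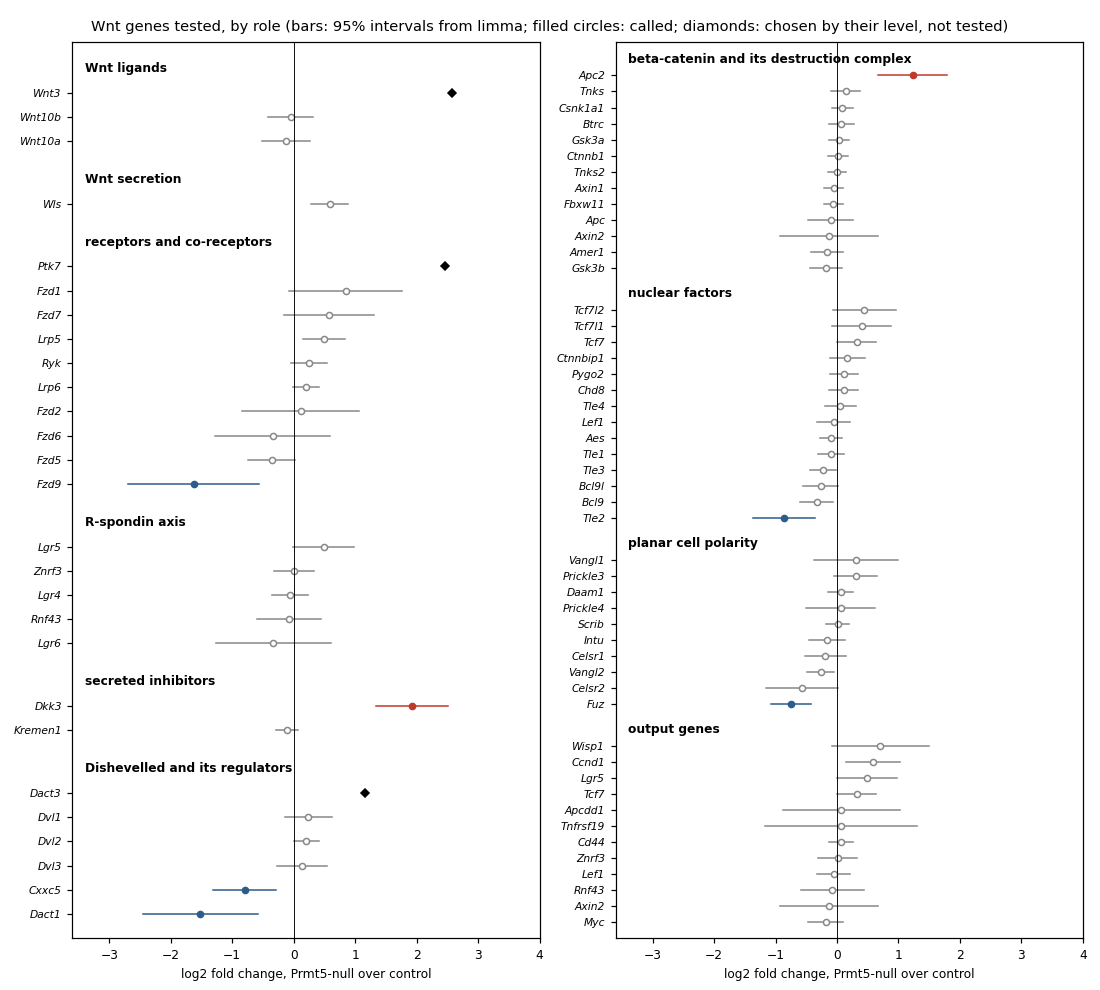
Log2 fold change of Prmt5-null over control (horizontal axis) for each tested Wnt gene, by role; circles with 95% intervals from limma are tested genes, filled where called (red higher, blue lower), and black diamonds are Wnt3, Ptk7 and Dact3, chosen by level. Calls fall in both directions, with Dkk3 and Apc2 higher and Dact1, Fzd9, Cxxc5, Tle2 and Fuz lower, and no output gene is filled.

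Whether output genes followed Wnt3, Ptk7 and Dact3 was asked with a list of genes known to be induced by beta-catenin, Axin2, Lef1 and Tcf7 among them. The list held 25 symbols, with Wisp1 also listed under its other symbol, Ccn4. Of the symbols, 24 were in the table and 12 were tested. Of these 12, 0 were called by limma, where 6.48% of all genes were called, a share at which 12 genes hold less than 1 call. At an unadjusted p below 0.05 there was 1 in limma, Ccnd1, where 29.3% of all genes reached that p. edgeR called 0 with 1 at that unadjusted p, and DESeq2 called 1. The median log2 fold change of the 12 was 0.06, with 8 above and 4 below 0, and in none were the genotypes apart, beside 19.8% of all genes.

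The highest output genes, both in normalized counts and per kb, were Cd44, Myc and Lef1. Cd44, an adhesion receptor, had 28751, 27314, 24121 and 25522 normalized counts in Prmt5-null and 27383, 23275, 23399 and 27184 in control libraries (log2 fold change 0.06, limma adjusted p = 0.683). Myc, a growth regulator, had 3065, 2416, 1970 and 2272 against 2772, 2386, 2607 and 3202 (log2 fold change -0.18, limma adjusted p = 0.380). Neither gene had a genotype that stood apart. Ccnd1, a cyclin of the G1 phase, had 788, 456, 676 and 541 against 467, 298, 348 and 524. Its log2 fold change was 0.59, from 0.15 to 1.03, with a limma adjusted p of 0.0725 and a DESeq2 adjusted p of 0.0266, and limma called it without Prmt5-null 10618 or without CTRL-10597. Rnf43 and Znrf3, ubiquitin ligases that remove Frizzled and are feedback targets, had log2 fold changes of -0.08 and 0.01 (limma adjusted p = 0.864 and 0.982). The 12 listed genes in the table that were not tested, such as Nkd1, Sp5 and Notum, had at most 14.2 normalized counts in any library, and 2 of them, Ascl2 and Bmp4, were at 0 throughout.

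**Figure D3:**
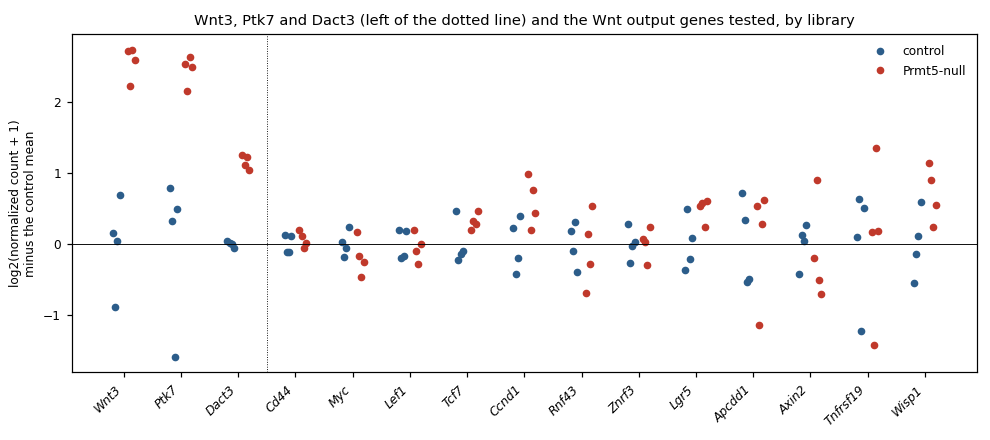
Log2(normalized count + 1) minus the control mean (vertical axis) for Wnt3, Ptk7 and Dact3, left of the dotted line, and for the 12 tested output genes in order of abundance, 1 point per library (blue control, red Prmt5-null). The Prmt5-null points of the 3 chosen genes lie above all their controls, while those of each output gene overlap the controls.

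RNA of the fibroblast feeders could enter these libraries, so 14 fibroblast genes were summed. The sum was 5271 to 9087 normalized counts in control and 7862 to 13469 in Prmt5-null libraries, 1.48 times as high on average. Of 12 tested, 3 were called higher, Col3a1 (log2 fold change 1.02), Col1a2 (0.72) and Sparc (0.83), where 3.49% of all genes were called higher. All 12 log2 fold changes were above 0, with a median of 0.74. One of the 12, Pdgfrb, passed the filter only through the Prmt5-null libraries. The collagens define this list and none was at 0. The sums overlapped in 1 library of each genotype, 7862 in Prmt5-null 10618 and 9087 in CTRL-10650. The part of feeder RNA in the levels of Wnt3, Ptk7, Dkk3, Apc2 and Wls was not tested. Summed myeloid genes were at 543 to 726 in Prmt5-null and 604 to 657 in control libraries.

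**Figure D4:**
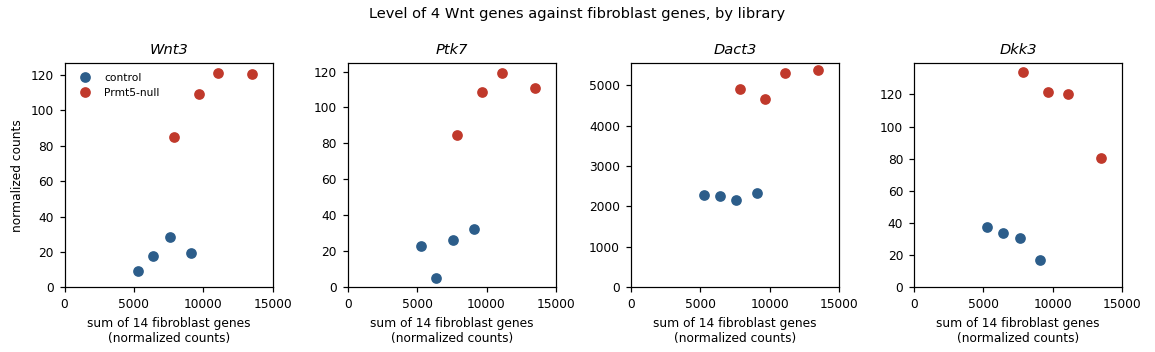
Normalized counts of Wnt3, Ptk7, Dact3 and Dkk3 (vertical axes, from 0) against the sum of 14 fibroblast genes (horizontal axis, normalized counts) in each control (blue) and Prmt5-null (red) library. The sums run from 5271 to 9087 in control and from 7862 to 13469 in Prmt5-null libraries, and Wnt3, Ptk7 and Dact3 were chosen for being higher in Prmt5-null libraries.

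Splicing was described from the authors' rMATS tables, which hold, for each gene, selected events, with their inclusion levels (the fraction of transcripts that use the longer form, or the first of a pair of exclusive exons). Dvl1 had 2 events and Lef1 1, and no other member was listed. Among 13300 genes with a mean above 50, 11.4% had at least 1 listed event, against 2 of the 9 members and 9 of 58 genes of the Wnt lists (15.5%) above that mean, and Dvl1 had been chosen for its events. For a given gene and type the tables hold at most 1 event, kept as the most significant past a minimum difference, and do not say which value is from which mouse, so the values below are the authors', with no SD and no test.

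The larger Dvl1 event was retention of intron 3 of the transcript Dvl1-201, 224 bases at chr4:155853759-155853982 on GRCm38, plus strand. In the line below capitals mark the first 4 bases, which hold the splice donor GT and the stop codon TAA, and the acceptor AG.
Dvl1 intron 3: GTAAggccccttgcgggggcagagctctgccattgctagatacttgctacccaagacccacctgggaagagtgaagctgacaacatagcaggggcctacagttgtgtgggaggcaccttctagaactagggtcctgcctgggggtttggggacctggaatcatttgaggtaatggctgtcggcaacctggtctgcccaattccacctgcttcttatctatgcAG
Dvl1 donor, last 3 exon bases and first 6 intron bases: ccaGTaagg
The inclusion level of the intron was 0.373, 0.096, 0.199 and 0.258 in control and 0.667, 0.748, 0.572 and 0.671 in Prmt5-null iGBs. Every Prmt5-null value exceeded every control value, and the means of 0.231 and 0.664 differed by 0.433. Summed over libraries, 192 reads included and 266 skipped the intron in control iGBs, and 855 and 145 in Prmt5-null iGBs. By size of difference it was number 9 of 337 listed retained introns.

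The last codon that begins in exon 3 takes 1 base of the intron, and the next codon is that TAA. From the start codon of Dvl1-201, the annotated retained-intron transcript Dvl1-207 thus reads 121 codons to a stop, where Dvl1-201, with 15 exons, has 695, and 9 exon junctions follow the stop. The intron is not a multiple of 3 in length (remainder 2) and its GC content is 55.4%. Of 8 annotated Dvl1 transcripts, 1 holds the intron inside an exon and 4 splice it out, so reads in the intron could count toward the gene, and the level of Dvl1 given above may hold them. The strand setting of that counting is not given in the sources used here.

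The second Dvl1 event set exon 3 (chr4:155853637-155853758, 122 bases) against exon 4 (chr4:155853983-155854086, 104 bases) as exclusive exons. These are the exons on either side of the retained intron, so both events draw on shared exons and are not independent. The use of exon 3 was 0.624, 0.484, 0.455 and 0.532 in control and 0.642, 0.729, 0.724 and 0.805 in Prmt5-null iGBs, over 912 reads. The genotypes were apart by a narrow margin, 0.624 to 0.642, and the means differed by 0.201. It was number 70 of 350 listed events of its type.

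Lef1, whose level was not called, had 1 skipped exon, exon 10 of the 11 in Lef1-202, 41 bases at chr3:131204933-131204973, plus strand, with its stop codon in capitals.
Lef1 exon 10: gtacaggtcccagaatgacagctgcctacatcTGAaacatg
Its inclusion level was 0.875, 0.866, 0.899 and 0.902 in control and 0.698, 0.699, 0.677 and 0.629 in Prmt5-null iGBs, over 964 reads. The Prmt5-null values all lay below the control values, and the mean fell by 0.210, from 0.885 to 0.676. In control iGBs 447 reads included and 44 skipped the exon, and in Prmt5-null iGBs 348 and 125. It was number 298 of 913 listed skipped exons.

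The stop codon lies after 32 bases of this exon, so Lef1-202 ends within it, at 369 codons. Lef1-204, which differs from Lef1-202 by this exon alone, reads on into its last exon and has 384 codons. Of these, 26 end past the exon before the skipped exon, where Lef1-202 has 11. The last exon is in both forms but is read as codons only in Lef1-204. The forms thus differ at the C-terminal end of Lef1. The exon is in 3 of 4 annotated coding Lef1 transcripts.

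**Figure D5:**
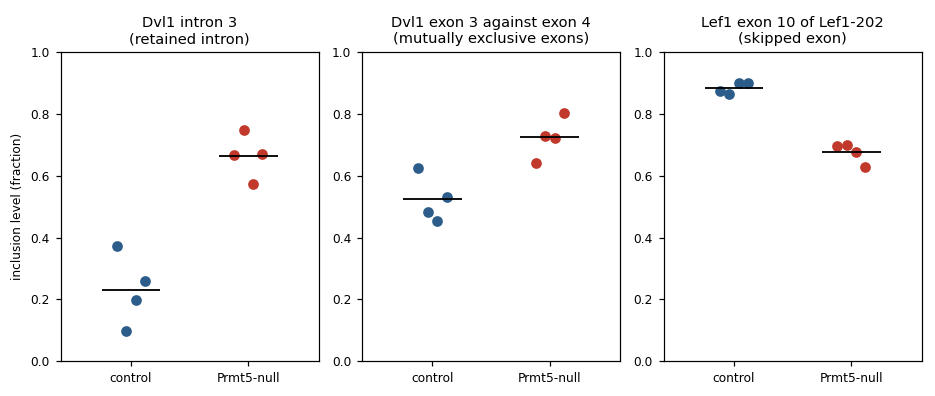
Inclusion level (fraction, 0 to 1) of the 3 listed events of Dvl1 and Lef1 in control (blue) and Prmt5-null (red) iGBs, 4 values per genotype as the authors list them, with a line at the mean. The retained Dvl1 intron is highest in Prmt5-null iGBs (0.572 to 0.748 against 0.096 to 0.373), and Lef1 exon 10 is lower (0.629 to 0.699 against 0.866 to 0.902).

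The other Wnt genes with listed events were Scrib, Fbxw11, Fuz, Cd44, Tle1, Tle3 and Chd8, named because they complete the count. Fuz, which fell in level, also retained an intron of 878 bases (chr7:44897625-44898502) at 0.565 to 0.753 in Prmt5-null and 0.254 to 0.452 in control iGBs. Fbxw11, an F-box protein that targets beta-catenin for destruction, included an exon of 157 bases (chr11:32652748-32652904) at 0.142 to 0.191 in Prmt5-null and 0.283 to 0.428 in control iGBs, with a log2 fold change in level of -0.06 (limma adjusted p = 0.611). The inclusion levels of the genotypes overlapped for the listed Fuz and Tle1 skipped exons, the exclusive exons of Cd44 and the alternative splice donor of Fuz.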

How the data were processed

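RNA-seq of 8 iGB libraries, 4 per genotype, each from 1 mouse, was used. The authors trimmed reads with Trimmomatic 0.32, aligned them with STAR 2.3.0e to GRCm38, counted them on exons with featureCounts 1.4.4 and deposited the counts as a signal, divided by DESeq2 1.14.1 size factors. The strand setting is not given in the sources used here. Every deposited value was a whole multiple of 1 read in its library (tolerance 0.001). For splicing, the authors deposited rMATS tables with inclusion levels as fractions and read counts, and p-values, FDR values and differences, as well as gene fold changes and p-values, which were not used.

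Genotypes were compared on log2(normalized count + 1) by limma 3.58.1 with a trend (R 4.3.3), for genes with a mean of at least 10, with Benjamini-Hochberg adjustment over 16250 genes. limma called 1053 genes, edgeR 4.0.16 on the recovered reads 1091 and DESeq2 1.42.0 1277. Inclusion levels were read as sample 1 for control and sample 2 for Prmt5-null, after the study's legend.

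The members and lists were chosen with earlier results of these data known. Named were all members, at most 5 called genes of each list, the 3 most abundant output and receptor genes and the 3 genes most like each chosen member; any other gene was named after its values were seen. Alternatives changed the pseudocount, filter, normalization, trend, tool, thresholds and the libraries used, and a block for experiment was fitted in all 18 placements. Sequences are from the RefSeq promoter table of GRCm38.p6 and the GENCODE transcripts of GRCm38.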

Additional observations from a re-analysis of the deposited data

Results flagged for a closer look

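Over 66 groups of 4 libraries, 1 for each genotype and each of 33 named genes, 4 held a library far from the other 3. This is near the share that chance gives, about 1 in 20. Fuz had 439 normalized counts in Prmt5-null 10617, while the other Prmt5-null libraries had 315 to 332, a gap of 0.863 of the range. Tcf7 had 645 normalized counts in CTRL-10650, while the other controls had 399 to 434, a gap of 0.857 of the range. In Prmt5-null 10770, Wls had 814 normalized counts and the other Prmt5-null libraries 549 to 587 (a gap of 0.857 of the range), and Wnt10b had 3186 and the others 1834 to 1992 (0.883 of the range).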

How the results depend on the processing

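Of the 7 members whose level was not used in the choice, 0 were called in each of 22 alternatives. All genes called numbered 2249 by adjusted p alone, 396 at 2-fold and 637 at an adjusted p of 0.01, and 792 to 1170 with 1 library left out. Output genes called numbered 1 with DESeq2 and at most 1 with the experiment as a block, and 0 to 1 with 1 library left out. Wnt pathway genes called, Wnt3, Ptk7 and Dact3 included, numbered 6 at an adjusted p of 0.01 and 6 to 10 with 1 library left out. Without these 3 genes, 7 were called, 3 at an adjusted p of 0.01, and 4 at 2-fold, with a filter at a mean of 50 or with no filter. With 1 library left out, 3 to 7 were called: 3 without CTRL-10596 and 4 without Prmt5-null 10617, CTRL-10370 or CTRL-10597. Some of these counts hold genes outside the 7. Wls was such a gene without Prmt5-null 10617, 10618 or 10771 or CTRL-10370, Fzd1 without Prmt5-null 10618 and Wnt5b with no filter. Of the 7, only Dkk3, Apc2 and Fuz stayed called without CTRL-10596, CTRL-10370 or Prmt5-null 10617. The log2 fold change of Tcf7 ranged from 0.24 to 0.47 with 1 library left out. Those of Lef1 (-0.13 to 0.0305), Axin2 (-0.47 to 0.0642) and Ctnnb1 (-0.0381 to 0.0401), none called, changed sign within these ranges. Those of Wnt3 (2.28 to 2.80), Ptk7 (1.92 to 2.72) and Dact3 (1.13 to 1.199) stayed above 0. The splicing events of the members were 1 in place of 3 at a difference of 0.25. The cause of these changes was not tested, beyond the fewer libraries or stricter thresholds themselves. No paired analysis was possible because the replicate numbers are mouse numbers and the genotypes share none. The limma p-values weigh the difference between genotypes against the spread between these 4 mice per genotype, drawn toward a trend over all genes. Low counts limit Axin2, which had no value under a filter at a mean of 50, Fzd9 and Dact1.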
